A study of Mus musculus with 10 samples.

Results

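Trophoblast stem cells (TSCs), which can be kept in culture as a self-renewing counterpart of the early trophectoderm, were sorted by the level of the transcription factor CDX2 and their RNA was measured in bulk. The comparison described here takes 6 of the 10 libraries of the series, the 3 of CDX2-high cells (numbered 37, 38 and 39) and the 3 of CDX2-low cells (40, 41 and 42), chosen because the labels name them as the sorted bulk libraries. All 6 came from mouse TSCs on a C57BL/6J background that carry eGFP knocked in at the coding sequence of Cdx2, so both groups bear the reporter allele, and both were grown in Tx, a culture medium for TSCs that supplies growth factors. No treatment, time point or sort threshold is named for them, and the labels do not say whether libraries of a group came from separate cultures. The p-values below therefore measure the spread between these libraries, which may be technical. The remaining 4 libraries are single-cell plates with 1 library per group and a randomly integrated GFP cassette. The plates of TSCs, of TSCs differentiated for 6 days without FGF4, TGF-beta or heparin, and of newly derived pTSCs in LT21 medium serve as another readout near the end.

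CDX2 is a homeodomain transcription factor that marks the trophectoderm lineage of the blastocyst and, with factors such as EOMES, ELF5, SOX2 and TFAP2C, keeps TSCs undifferentiated. FGF signalling through the ERK kinases sustains these cells, and its loss lets them leave the cell cycle for giant cell, spongiotrophoblast or labyrinth fates. TSC cultures are known to be mixed, holding cells that differ in how much of these factors they contain. The sort asks which transcripts go with the CDX2 level inside such a culture.

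The CDX2-high libraries held 157588, 257159 and 272030 counts and the CDX2-low libraries 116659, 138966 and 134978, so every CDX2-high library was deeper than every CDX2-low library. Between 9266 and 10402 genes were detected per library. Pearson correlations of log-CPM over the genes tested were 0.918 to 0.940 among CDX2-high libraries, 0.847 to 0.874 among CDX2-low libraries and 0.801 to 0.856 between the groups. The leading principal component, with 40.3% of the variance, separated the groups, and the next, with 22.9%, set CDX2-low library 41 against library 42. Library 42 also stood apart in the summed level of ribosomal protein genes, 204400 CPM against 168500 to 183600 CPM in the other 5 libraries. No pair of libraries in a group agreed within sampling noise.

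Most listed markers of other cell types and of giant cells had under 10 counts over all libraries. These were 9 of 15 epiblast, 12 of 18 primitive endoderm, 10 of 12 fibroblast and 12 of 16 giant cell markers. Of 15 epiblast markers 3 had no count in any library (Nanog, Gdf3 and Otx2) and Pou5f1 had 4 counts in all, and the summed level of the list was 980 to 1202 CPM in CDX2-high and 533 to 600.0 CPM in CDX2-low libraries, most of it from Pou3f1, Esrrb and Zfp42. Esrrb and Zfp42 are also on the list of TSC regulators used below. Of 18 primitive endoderm markers 6 were at 0, among them Sox17 and Hnf4a. The sums were 1593 to 2932 CPM and 1511 to 2357 CPM, led by Sparc, which was well counted (1670 counts in all). Of 12 fibroblast markers 5 were at 0, among them Col3a1 and Acta2, and the sums of 273 to 301 CPM and 130 to 223 CPM came chiefly from Vim, which rose (log2 fold change 0.94, SE 0.26, adjusted p = 0.0279) but did not pass with DESeq2, after thinning, without CDX2-high library 37, 38 or 39 or without CDX2-low library 41 (adjusted p up to 0.12). Of 16 giant cell markers 7 were at 0, and the sums were 183 to 228 CPM in CDX2-high and 289 to 386 CPM in CDX2-low libraries, mainly from Hand1. The part of these markers in the results below was not tested.

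The sort could be read in its reporter. The Cdx2-eGFP transcript stood at 987, 964 and 877 CPM in the CDX2-high libraries and 51.3, 60.7 and 128 CPM in the CDX2-low libraries (CPM, each library's counts scaled to a common total with TMM factors). Each CDX2-high library held several times the level of any CDX2-low library, and its log2 fold change was larger than that of any other gene that rose (log2 fold change 3.53, SE 0.29, adjusted p = 1.31e-08). Every adjusted p of the sort comes from the quasi-likelihood F test of edgeR, with the correction of Benjamini and Hochberg. The separate entry for untagged Cdx2 had 7 counts in all and was not tested. In a bulk sample, fewer cells that contain a transcript and less of it per cell cannot be told apart.

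The table held 17793 genes. Of these, 3006 had enough counts to be tested and 177 passed at an adjusted p under 0.05 (5.89% of those tested), 93 higher in CDX2-high libraries (3.09%) and 84 lower (2.79%). The median log2 fold change of all genes tested was -0.01. In 175 of the 177 the libraries of the groups did not overlap, and the same held for 687 of all genes tested (22.9%). The filter asked for enough counts in as many libraries as a group holds, so a gene scarce in 1 group could enter through the other. Among such genes were Zic2, Inpp1, Duoxa2, Ccnd1, Dusp6, Igfbp2, Lgals9, Marcks, Fosl2, Rhox13 and Fxyd6. For every such gene, listed here or not, a lack of overlap is partly set by the filter and is a description only. Of the 177 genes, 113 belonged to at least 1 of 63 gene lists and 64 to none. Each count of called list members below is to be read beside the 5.89% called over all genes tested. More calls hung on the CDX2-high libraries: leaving out library 37, 38 or 39 ended 87, 81 or 99 of the 177 calls, and leaving out CDX2-low library 40, 41 or 42 ended 52, 45 or 52. The CDX2-high libraries were also deeper and more alike, and what made the difference was not tested. DESeq2 kept 88 (2.93% of the genes tested). In all 12 alternatives tried, 55 genes passed, 32 higher and 23 lower, and these are called stable below. None of the 177 genes changed direction in an alternative that tested it, and direction was not checked for named genes that did not pass. Sizes given as a rise or fall are log2 fold changes, CDX2-high over CDX2-low, and an adjusted p given as up to a value is the highest over those alternatives.

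**Figure D1:**
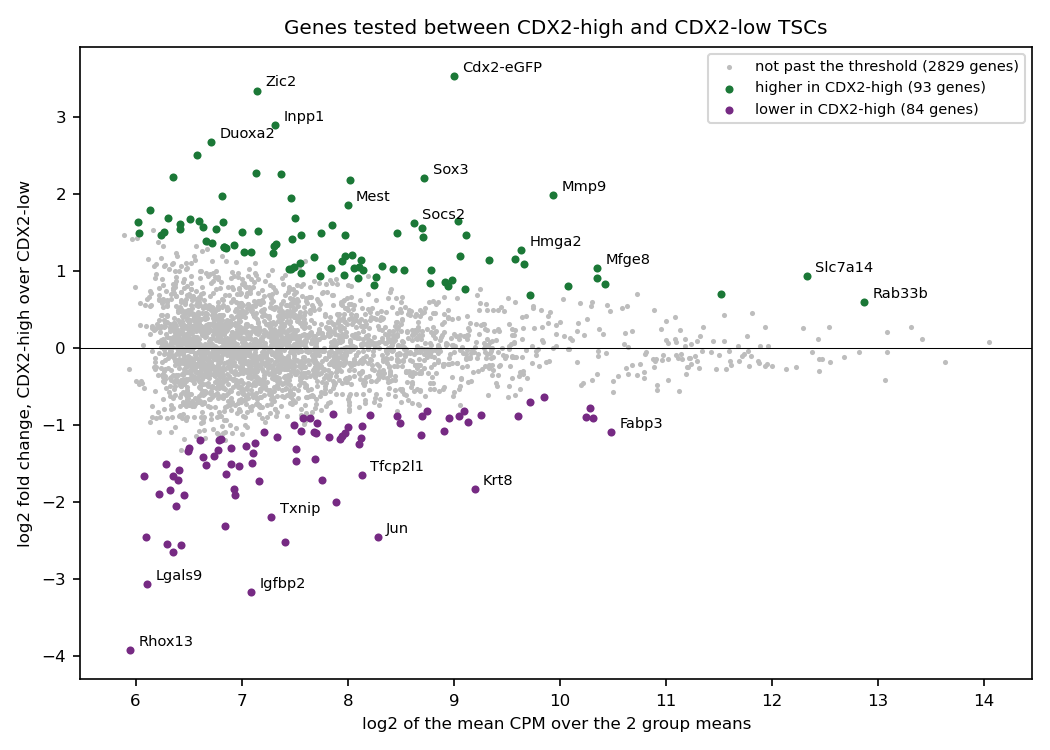
Each point is 1 of the 3006 genes tested, with the log2 of its mean CPM on the horizontal axis and its log2 fold change, CDX2-high over CDX2-low, on the vertical axis. The 93 genes higher in CDX2-high (green) and the 84 lower (purple) span the range of levels, from Rhox13 at a log2 fold change of -3.93 to Cdx2-eGFP at 3.53, and the well counted Slc7a14 and Rab33b passed at 0.93 and 0.60.

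Transcription factors moved in both directions. Of 64 tested members of the listed factor families 7 rose and 10 fell, with a median log2 fold change of 0.05. Zic2, a zinc finger factor, was measured at 251, 200.3 and 323 CPM in the CDX2-high libraries and 30.8, 26.0 and 18.3 CPM in the CDX2-low libraries, and Pou3f1, a POU domain factor of the early embryo, at 904, 671 and 877 CPM in the CDX2-high libraries and 318, 355 and 209.9 CPM in the CDX2-low libraries. All CDX2-high libraries lay above all CDX2-low libraries for both. Pou3f1 rose by 1.46 (SE 0.24, adjusted p = 0.000273) and Zic2 by 3.34 (SE 0.41, adjusted p = 9.28e-06) on the log2 scale, and both were stable. Sox3, a SoxB1 factor related to Sox2, rose by 2.20 (SE 0.35, adjusted p = 0.000204) but did not pass with DESeq2 (adjusted p up to 0.0689). Klf5, a Kruppel-like factor needed for trophectoderm, rose by 1.06 (SE 0.25, adjusted p = 0.0116) and did not pass without CDX2-high library 37 (adjusted p up to 0.052). Tgif1, a repressor in TGF-beta signalling, rose by 1.52 (SE 0.37, adjusted p = 0.0131), and lost its call with DESeq2, without CDX2-high library 38 or without CDX2-low library 41 (adjusted p up to 0.0759). The ETS factor Etv4 and Myc rose by 1.51 and 1.64, and passed neither with DESeq2 nor without CDX2-high library 37, 38 or 39, with adjusted p up to 0.241 and 0.193 over the alternatives.

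Among the factors that fell, Jun, a subunit of AP-1, was at 75.9, 107 and 97.5 CPM in the CDX2-high libraries and 615, 407 and 566 CPM in the CDX2-low libraries. Its relative Fosl2 was at 7.59, 27.9 and 22.2 CPM in the CDX2-high libraries and 103, 113 and 137 CPM in the CDX2-low libraries. CDX2-low libraries were above all CDX2-high libraries for both genes, with log2 fold changes of -2.45 (SE 0.26, adjusted p = 1.35e-06) and -2.45 (SE 0.48, adjusted p = 0.00179), and both were stable. Of the 12 tested AP-1 and immediate early genes 3 fell, the third being Fos (-0.88), which did not pass with DESeq2, after thinning, without CDX2-high library 37, 38 or 39 or without CDX2-low library 41 (adjusted p up to 0.234). The list also held members on the other side, and its log2 fold changes ran up to 0.63. Tfcp2l1, a grainyhead-family factor known from pluripotent cells, had 121, 135 and 146 CPM in the CDX2-high libraries and 400.0, 373 and 511 CPM in the CDX2-low libraries, a stable call (log2 fold change -1.65, SE 0.25, adjusted p = 0.000141). It belonged to no list and is named because its call was stable. Id2, which holds bHLH factors inactive, fell from 400.0, 589 and 712 CPM in the CDX2-low libraries to 243, 238 and 292 CPM in the CDX2-high libraries (log2 fold change -1.14, SE 0.24, adjusted p = 0.00392), again a stable call. Cited1, a transcriptional coregulator active in trophoblast, stood at 129, 60.6 and 102 CPM in the CDX2-high libraries and 359, 381 and 392 CPM in the CDX2-low libraries, 97.2 ± 34.5 CPM against 378 ± 17.1 CPM (SD, n = 3 each), and also fell in every alternative (adjusted p = 6.04e-05). Cebpb, Irf1 and Foxq1 fell, with log2 fold changes of -1.51, -1.23 and -1.34, and each lost its call with DESeq2 and without CDX2-high library 38 or 39, with adjusted p up to 0.143, 0.0787 and 0.269.

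Few genes on the list of stem state regulators passed the test. The list also holds Ddah1, an enzyme that is on the polar trophectoderm list too. Of 24 listed regulators 15 were tested, 11 had a positive log2 fold change and the median was 0.71. With the sort's own reporter set aside, 14 were tested, of which 2 rose (Sox3 and Ddah1), 1 fell (Id2) and 11 did not pass (21.4% called, beside 5.89% of all genes). Of these 14, 10 had a positive log2 fold change, 8 were higher and 2 lower at an unadjusted p under 0.05, 0 were higher and 1 lower by DESeq2, and the median was 0.60. The summed level of all 23 listed regulators besides the reporter, tested or not, was 3340 to 3617 CPM in CDX2-high and 1989 to 2741 CPM in CDX2-low libraries. Eomes, a T-box factor of the trophectoderm, was at 327, 200.3 and 217 CPM in the CDX2-high libraries and 61.5, 173 and 164 CPM in the CDX2-low libraries, with no overlap (log2 fold change 0.83, SE 0.32, adjusted p = 0.147). The ETS factor Elf5 was at 251, 228 and 230.4 CPM in the CDX2-high libraries and 113, 165 and 119 CPM in the CDX2-low libraries, also without overlap (log2 fold change 0.82, SE 0.28, adjusted p = 0.0898). The orphan nuclear receptor Esrrb was at 311, 233 and 346 CPM in the CDX2-high libraries and 113, 156 and 209.9 CPM in the CDX2-low libraries, again with the groups apart (log2 fold change 0.88, SE 0.28, adjusted p = 0.0653). None of these 3 passed. Sox2, the best counted of the list, was at 668, 764 and 793 CPM in the CDX2-high libraries and 400.0, 485 and 703 CPM in the CDX2-low libraries, where CDX2-low library 42 reached into the CDX2-high range (log2 fold change 0.49, SE 0.22, adjusted p = 0.227). Nr0b1, a nuclear receptor without a DNA-binding domain, was too low to be tested, with 14, 25 and 17 counts in the CDX2-high and 3, 1 and 2 counts in the CDX2-low libraries. Gata3 and Tfap2c had overlapping groups. Gata3 was at 121, 102 and 142 CPM in the CDX2-high libraries and 113, 121 and 164 CPM in the CDX2-low libraries and Tfap2c at 289, 298 and 222 CPM in the CDX2-high libraries and 185, 191 and 256 CPM in the CDX2-low libraries, with log2 fold changes of -0.12 (SE 0.32, adjusted p = 0.891) and 0.34 (SE 0.26, adjusted p = 0.526). The FGF receptor Fgfr2 lay on the other side and did not pass (log2 fold change -1.10, SE 0.43, adjusted p = 0.152).

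The Rhox cluster of the X chromosome encodes homeodomain factors expressed in placenta and germ cells. Of the 11 Rhox genes listed, 5 were at 0 and 4 were tested, of which 3 fell (75.0%, beside 5.89% of all genes called). Rhox9 was at 22.8, 97.8 and 22.2 CPM in the CDX2-high libraries and 185, 269 and 419.9 CPM in the CDX2-low libraries, and Rhox6 at 60.7, 112 and 119.6 CPM in the CDX2-high libraries and 338, 347 and 319 CPM in the CDX2-low libraries. For both, every CDX2-low library was above every CDX2-high library, and their log2 fold changes of -2.53 and -1.71 were stable. Their transcripts in the reference annotation share 167 windows of 30 bases, 17.0% of those of Rhox6, so reads may have been split between them and their separate values are uncertain. Rhox13 had 0, 9.32 and 8.86 CPM in the CDX2-high and 92.3, 95.3 and 164 CPM in the CDX2-low libraries (a log2 fold change of -3.93, SE 0.61, adjusted p = 0.000204), and was too low to be tested after thinning or with the stricter filter.

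Signalling genes in the stable set covered several pathways. Wnt7b, a WNT ligand, was at 1177, 1006 and 1117 CPM in the CDX2-high libraries and 646, 589 and 310.3 CPM in the CDX2-low libraries, a rise of 1.09 (SE 0.23, adjusted p = 0.00392). Socs2, an inhibitor of cytokine and growth hormone signalling, was at 478, 545 and 749 CPM in the CDX2-high libraries and 297, 147 and 146 CPM in the CDX2-low libraries, a rise of 1.62 (SE 0.28, adjusted p = 0.000435). Neither gene's groups overlapped. Socs3, which acts on the STAT3 branch, moved the other way at 22.8, 18.6 and 48.7 CPM in the CDX2-high libraries and 154, 113 and 91.3 CPM in the CDX2-low libraries (a log2 fold change of -1.89, SE 0.45, adjusted p = 0.0119), and did not pass without CDX2-high library 37 or 38 or without CDX2-low library 40 (adjusted p up to 0.104). Pth1r, the receptor of parathyroid hormone and its related peptide, had 349, 182 and 177 CPM in the CDX2-high libraries and 20.5, 78.0 and 36.5 CPM in the CDX2-low libraries and rose by 2.27 (SE 0.42, adjusted p = 0.00125), and was the 1 member of 12 tested receptors and ligands of other pathways that passed. Dusp6, the phosphatase induced by ERK, was at 319, 252 and 275 CPM in the CDX2-high libraries and 82.1, 34.7 and 100.4 CPM in the CDX2-low libraries. Ccnd1, the cyclin that growth factors induce in G1, was at 189.8, 126 and 177 CPM in the CDX2-high libraries and 10.3, 26.0 and 45.6 CPM in the CDX2-low libraries. Both were stable. Their groups did not overlap, which the filter partly sets for genes scarce in the CDX2-low libraries. FGF and ERK targets had 4 of 8 tested members higher, 0 lower (1 at an unadjusted p under 0.05, 0 by DESeq2) and a median log2 fold change of 1.20, the highest median among the lists with at least 4 members tested.

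In the insulin-like growth factor axis, 1 of 9 tested members rose and 2 fell. Igfbp2, a secreted binding protein of these growth factors, was at 45.6, 14.0 and 26.6 CPM in the CDX2-high libraries and 226, 251 and 256 CPM in the CDX2-low libraries. Every CDX2-low library lay well above every CDX2-high library, and the difference was stable (log2 fold change -3.17, SE 0.39, adjusted p = 9.28e-06). Grb10, an adaptor that dampens insulin receptor signalling, was at 797, 769 and 1081 CPM in the CDX2-high libraries and 503, 321 and 383 CPM in the CDX2-low libraries and rose by 1.15 (SE 0.23, adjusted p = 0.00226). Igf2 itself, the best counted member, was at 10456, 11002 and 12597 CPM in the CDX2-high libraries and 11026, 9377 and 10989.5 CPM in the CDX2-low libraries, with overlapping groups and a log2 fold change of 0.12 (SE 0.14, adjusted p = 0.715). Igf2as, an entry that overlaps Igf2 on the other strand, rose by 1.29 (SE 0.38, adjusted p = 0.0448). It did not pass with DESeq2, after thinning, without CDX2-high library 37 or 39 or without CDX2-low library 40 or 42 (adjusted p up to 0.171), and since the strand setting of the counting is not given in the sources used here its reads cannot be told from those of Igf2.

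Imprinted placental genes, expressed from 1 parental allele and known for their effects on growth, were split, with 2 of 10 tested members higher and 2 lower. Mest, a hydrolase-fold protein expressed from the paternal allele, was at 349, 409.9 and 443 CPM in the CDX2-high libraries and 92.3, 95.3 and 146 CPM in the CDX2-low libraries and rose by 1.85 (SE 0.28, adjusted p = 0.000135). Peg10, a retrotransposon-derived gene needed for placenta formation, was at 75.9, 79.2 and 128 CPM in the CDX2-high libraries and 338, 173 and 301 CPM in the CDX2-low libraries and fell by 1.46 (SE 0.31, adjusted p = 0.0051). Mest, Grb10 and Peg10 were stable, and no CDX2-high library overlapped a CDX2-low library in any of them. Phlda2, which restrains placental growth, fell by 0.92 (SE 0.28, adjusted p = 0.0491) and did not pass with DESeq2, with no filter, without CDX2-high library 37, 38 or 39 or without CDX2-low library 41 or 42 (adjusted p up to 0.266). Imprinted genes were thus found on both sides of the comparison.

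Solute carriers, the membrane transporters for nutrients, ions and metabolites, had 338 entries, of which 100 had no count and 35 were tested. Of these, 6 rose and 3 fell (25.71% called, beside 5.89% of all genes, median log2 fold change 0.03). The summed level of the family was 16980 to 17900 CPM in CDX2-high and 13090 to 15100 CPM in CDX2-low libraries. The best counted of them was Slc7a14, of a family named for cationic amino acid transporters. It was at 7198, 6577 and 6518 CPM in the CDX2-high libraries and 3446, 4437 and 2720.0 CPM in the CDX2-low libraries, with no overlap (log2 fold change 0.93, SE 0.17, adjusted p = 0.000697). Slc7a14 weighs most in the family's sum, which is on the scale of plain totals. The sum was not taken without Slc7a14, so a difference of the family apart from this gene is not shown. In the single-cell plate of TSCs read near the end, Slc7a14 had only 8 counts (1.49 CPM), a gap that was not tested. Slc30a3, which loads zinc into vesicles, was at 319, 228 and 275 CPM in the CDX2-high libraries and 61.5, 26.0 and 82.1 CPM in the CDX2-low libraries. It was the only one of 12 tested genes of zinc, iron and heme handling to pass (log2 fold change 2.26, SE 0.36, adjusted p = 0.000204). Slc4a11, a member of the bicarbonate transporter family, was at 539, 479.8 and 549 CPM in the CDX2-high libraries and 154, 191 and 209.9 CPM in the CDX2-low libraries (a log2 fold change of 1.49, SE 0.24, adjusted p = 0.000273). All 3 were stable.

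Other transporters that rose were less firm. Slc23a1, which takes up ascorbate, was at 1640.1, 1896 and 1582 CPM in the CDX2-high libraries and 1056, 1135 and 529 CPM in the CDX2-low libraries, a rise of 0.91 (SE 0.22, adjusted p = 0.0128) that did not pass without CDX2-high library 38 (adjusted p up to 0.0549). Slc29a1, an equilibrative nucleoside transporter, rose by 0.93 and did not pass with DESeq2, without CDX2-high library 37, 38 or 39 or without CDX2-low library 40 or 42 (adjusted p up to 0.125). Slc27a4, a fatty acid transport protein, rose by 1.68 and did not pass with DESeq2, after thinning, without CDX2-high library 37, 38 or 39 or without CDX2-low library 41 or 42 (adjusted p up to 0.117). Of the carriers that fell, the prostaglandin transporter Slco2a1 was stable, at 30.4, 51.2 and 66.5 CPM in the CDX2-high libraries and 133, 225 and 228 CPM in the CDX2-low libraries. Its level in the highest CDX2-high library was under that in the lowest CDX2-low library (log2 fold change -1.91, SE 0.37, adjusted p = 0.00163). The glucose transporters Slc2a1 and Slc2a3 were at 683, 992 and 846 CPM in the CDX2-high libraries and 1713, 1144 and 1889 CPM in the CDX2-low libraries, and at 349, 405 and 279 CPM in the CDX2-high libraries and 574, 563 and 803 CPM in the CDX2-low libraries. They fell without overlap, with log2 fold changes of -0.90 and -0.91. Slc2a1 did not pass without CDX2-high library 37 or 39 (adjusted p up to 0.092), nor Slc2a3 without CDX2-high library 37 or 39 or without CDX2-low library 42 (adjusted p up to 0.143). Among 10 tested ion pumps, channels and their regulators, 2 fell and none rose by edgeR's test (1 rose at an unadjusted p under 0.05 and 0 by DESeq2). They were Fxyd6, a modulator of the sodium pump at 0, 27.9 and 31.0 CPM in the CDX2-high libraries and 92.3, 156 and 183 CPM in the CDX2-low libraries (a log2 fold change of -2.65, SE 0.50, adjusted p = 0.0014), too low for the stricter filter or thinning, and the connexin Gjb5 (log2 fold change -1.72, SE 0.44, adjusted p = 0.0195), which did not pass with DESeq2, without CDX2-high library 37 or 39 or without CDX2-low library 41 (adjusted p up to 0.172).

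Several metabolic enzymes rose. Inpp1, which removes a phosphate from inositol phosphates, was at 258, 247 and 337 CPM in the CDX2-high libraries and 41, 34.7 and 36.5 CPM in the CDX2-low libraries. That is a rise of 2.90 (SE 0.36, adjusted p = 9.28e-06), stable and without overlap. Isyna1, which makes inositol phosphate from glucose 6-phosphate, also rose (1.02) but did not pass with DESeq2, after thinning, without CDX2-high library 37, 38 or 39 or without CDX2-low library 40 or 41 (adjusted p up to 0.169), and the other 9 of the 11 tested inositol genes did not pass. Upp1, uridine phosphorylase, was at 395, 424 and 452 CPM in the CDX2-high libraries and 144, 78.0 and 63.9 CPM in the CDX2-low libraries and was stable (log2 fold change 2.18, SE 0.29, adjusted p = 3.31e-05). Rrm2, the regulated subunit of ribonucleotide reductase, rose by 0.82 and did not pass with DESeq2, without CDX2-high library 37, 38 or 39 or without CDX2-low library 40 or 41 (adjusted p up to 0.166). Together these 2 were the calls among 23 tested genes of nucleotide metabolism (8.7%, beside 5.89% of all genes).

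Among 12 tested genes of amino acid metabolism 2 rose. Nat8l, which makes N-acetylaspartate from aspartate and acetyl-CoA, was at 327, 275 and 230.4 CPM in the CDX2-high libraries and 123, 86.7 and 45.6 CPM in the CDX2-low libraries (a log2 fold change of 1.69, SE 0.33, adjusted p = 0.00176) and was stable. Ddah1, which degrades methylated arginines, rose by 1.05 and did not pass with DESeq2, without CDX2-high library 37 or 38 or without CDX2-low library 42 (adjusted p up to 0.0655). Outside the lists, and named after their values were seen, Hibch of valine breakdown was at 319, 228 and 288 CPM in the CDX2-high libraries and 103, 86.7 and 109.5 CPM in the CDX2-low libraries (a log2 fold change of 1.46, SE 0.29, adjusted p = 0.00254) and the sorbitol dehydrogenase Sord at 349, 289 and 315 CPM in the CDX2-high libraries and 144, 86.7 and 109.5 CPM in the CDX2-low libraries (a log2 fold change of 1.49, SE 0.28, adjusted p = 0.00154). Every CDX2-high library exceeded every CDX2-low library for both, and both were stable. Cyp26a1, which degrades retinoic acid, rose by 1.54, and the vitamin B6 kinase Pdxk by 1.46. Cyp26a1 did not pass with DESeq2, without CDX2-high library 39 or without CDX2-low library 40 (adjusted p up to 0.0746), nor Pdxk with DESeq2, without CDX2-high library 37, 38 or 39 or without CDX2-low library 40, 41 or 42 (adjusted p up to 0.264). Duoxa2, the maturation factor of a hydrogen peroxide-making oxidase, was at 167, 186 and 191 CPM in the CDX2-high libraries and 30.8, 17.3 and 36.5 CPM in the CDX2-low libraries and was stable (log2 fold change 2.67, SE 0.42, adjusted p = 0.000204), while its partner Duox2 had 0 counts in every library.

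Further metabolic genes fell. Fabp3, a cytosolic fatty acid-binding protein, was at 850.4, 946 and 948 CPM in the CDX2-high libraries and 1569, 1985 and 2300.1 CPM in the CDX2-low libraries. Its CDX2-low levels were all above its CDX2-high levels, and it was stable (log2 fold change -1.09, SE 0.19, adjusted p = 0.000464). Idh2, the mitochondrial NADP-dependent isocitrate dehydrogenase, was at 1009.9, 749.9 and 895 CPM in the CDX2-high libraries and 1169, 2037 and 1762 CPM in the CDX2-low libraries (a log2 fold change of -0.91, SE 0.21, adjusted p = 0.00814) and did not pass without CDX2-high library 38 or 39 (adjusted p up to 0.0705). Gldc of the glycine cleavage system fell by 1.18 and did not pass without CDX2-high library 38 or 39 (adjusted p up to 0.0609). Scd2, a fatty acid desaturase, fell by 0.64 and did not pass with DESeq2, after thinning, with no filter, without CDX2-high library 37, 38 or 39 or without CDX2-low library 40 or 42 (adjusted p up to 0.224). In the non-oxidative arm of the pentose phosphate pathway the transketolase Tkt rose (0.83) and the transaldolase Taldo1 fell (-0.88). Neither was stable: Tkt did not pass with DESeq2, after thinning, with library totals only, without CDX2-high library 37, 38 or 39 or without CDX2-low library 42 (adjusted p up to 0.117), nor Taldo1 with DESeq2, with no filter, without CDX2-high library 37, 38 or 39 or without CDX2-low library 42 (adjusted p up to 0.0956).

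Txnip, which binds thioredoxin and restrains glucose uptake, was at 75.9, 65.2 and 31.0 CPM in the CDX2-high libraries and 205, 191 and 365 CPM in the CDX2-low libraries. Its CDX2-low libraries held several times the CDX2-high level, a stable call (log2 fold change -2.20, SE 0.37, adjusted p = 0.000357). With the glucose transporters it made up the 3 members of 16 in the glycolysis list that fell. Pkm, the best counted glycolytic enzyme, was at 2680.4, 2179.9 and 2569.8 CPM in the CDX2-high libraries and 2338, 1759 and 1515 CPM in the CDX2-low libraries with a log2 fold change of 0.41 (SE 0.18, adjusted p = 0.216), and the list's median was -0.07. None of 12 tested genes of cholesterol synthesis passed by edgeR or DESeq2, and 0 had an unadjusted p under 0.05 (median -0.11).

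**Figure D2:**
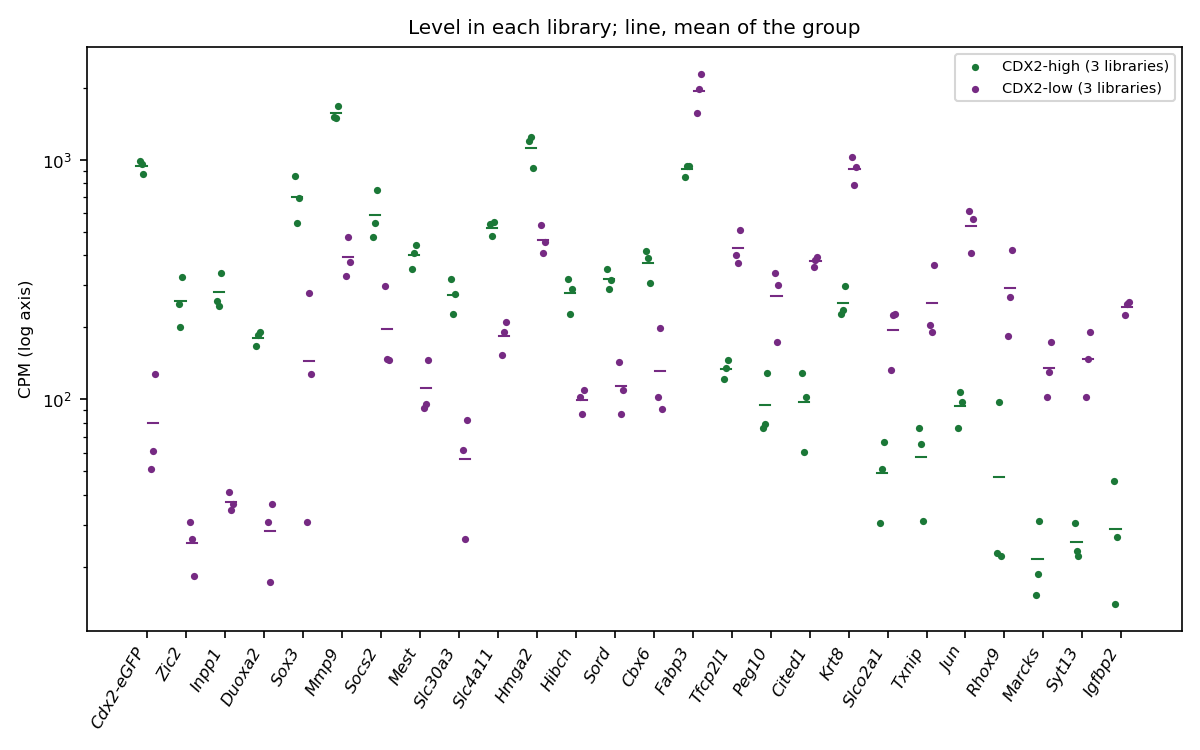
Level of 26 genes in each library, in CPM on a log axis, with 3 points for CDX2-high (green) and 3 for CDX2-low libraries (purple) and a line at each group mean. The CDX2-high points lie above the CDX2-low points for the 14 genes at the left and below them for the 12 at the right.

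Junction genes passed in both directions, and the keratins fell. Of 16 tested genes of tight junctions, gap junctions and desmosomes, 2 rose, 5 fell and 9 did not pass (43.75% called, beside 5.89% of all genes, median -0.38). Cldn26, of the claudin family, was at 121, 224 and 195 CPM in the CDX2-high libraries and 20.5, 69.3 and 45.6 CPM in the CDX2-low libraries and was stable (log2 fold change 1.98, SE 0.41, adjusted p = 0.00336). Perp, a desmosomal tetraspan protein, rose by 1.13 and did not pass without CDX2-high library 39 (adjusted p up to 0.0555). Those that fell besides Gjb5 were Dsp and Dsg2 of the desmosome (-1.27 and -1.18), the polarity protein Pard6b (-1.44) and Cldn4 (-0.82). None of them was stable: all lost their call without CDX2-high library 37 or 39, and adjusted p reached 0.257, 0.216, 0.195 and 0.142 over the alternatives. All 3 tested keratins, the filament proteins of simple epithelia, fell. Krt8 was at 228, 238 and 297 CPM in the CDX2-high libraries and 1026, 789 and 940.1 CPM in the CDX2-low libraries and was stable (log2 fold change -1.83, SE 0.22, adjusted p = 7.05e-06). Its partner Krt18 fell by 0.89 and did not pass without CDX2-high library 37 or 39 or without CDX2-low library 41 (adjusted p up to 0.0773), and Krt19 fell by 1.67 and did not pass with DESeq2, without CDX2-high library 37, 38 or 39 or without CDX2-low library 40 (adjusted p up to 0.0918).

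At the surface and in the matrix, stable genes were again found on both sides. Mmp9, a gelatinase that opens basement membranes, was at 1519, 1499.9 and 1679 CPM in the CDX2-high libraries and 328, 477 and 374 CPM in the CDX2-low libraries, with no overlap (log2 fold change 1.99, SE 0.21, adjusted p = 1.35e-06). Ly6a, a GPI-anchored surface protein known as Sca-1, was at 364, 312 and 368 CPM in the CDX2-high libraries and 71.8, 156 and 109.5 CPM in the CDX2-low libraries (a log2 fold change of 1.60, SE 0.29, adjusted p = 0.00081), and Cd24a, a mucin-like surface protein, at 60.7, 83.8 and 53.2 CPM in the CDX2-high libraries and 226, 165 and 274 CPM in the CDX2-low libraries (a log2 fold change of -1.72, SE 0.33, adjusted p = 0.00179). Thus 1 of 16 tested cadherin, catenin and surface adhesion genes rose and 1 fell. Mfge8, a secreted bridge to integrins, was at 1815, 1649 and 1808 CPM in the CDX2-high libraries and 954, 1023 and 593 CPM in the CDX2-low libraries (a log2 fold change of 1.04, SE 0.20, adjusted p = 0.00187), and Procr, the protein C receptor, at 585, 610.2 and 660.2 CPM in the CDX2-high libraries and 226, 199 and 209.9 CPM in the CDX2-low libraries (a log2 fold change of 1.55, SE 0.23, adjusted p = 0.000135). Each of these 5 genes kept its groups apart. Of 24 tested integrin and focal contact genes Itga7, a laminin receptor chain, rose (1.64) but did not pass with DESeq2, after thinning, without CDX2-high library 37, 38 or 39 or without CDX2-low library 40 (adjusted p up to 0.0938). Tns4, a tensin that links integrins to actin, fell and was stable, at 38, 23.3 and 35.4 CPM in the CDX2-high libraries and 164, 130.0 and 109.5 CPM in the CDX2-low libraries (a log2 fold change of -2.05, SE 0.42, adjusted p = 0.00284).

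Cytoskeletal genes were called about as often as all genes. Of 56 tested actin and myosin genes 1 rose and 2 fell (5.36%, beside 5.89% of all genes). Of the 56, 17 had a positive log2 fold change (median -0.25), and at an unadjusted p under 0.05 3 were higher and 11 lower. The summed level of the list was 16060 to 16440 CPM in CDX2-high and 18190 to 19430 CPM in CDX2-low libraries. Of 31 tested tubulin and microtubule genes 2 rose and none fell by edgeR or DESeq2 (6.45%), and 4 were higher and 2 lower at an unadjusted p under 0.05. Plec, the cytolinker that ties keratin filaments to junctions, was at 866, 713 and 656 CPM in the CDX2-high libraries and 349, 451 and 164 CPM in the CDX2-low libraries (a log2 fold change of 1.20, SE 0.26, adjusted p = 0.00578). Marcks, which gathers phosphoinositides and actin at the membrane, was at 15.2, 18.6 and 31.0 CPM in the CDX2-high libraries and 103, 130.0 and 173 CPM in the CDX2-low libraries (a log2 fold change of -2.55, SE 0.45, adjusted p = 0.000697). Their groups did not overlap, in opposite directions, and both were stable. Lgals3 and Lgals9, lectins that bind galactosides, were at 22.8, 69.9 and 17.7 CPM in the CDX2-high libraries and 185, 130.0 and 265 CPM in the CDX2-low libraries, and at 15.2, 23.3 and 4.43 CPM in the CDX2-high libraries and 123, 147 and 100.4 CPM in the CDX2-low libraries. Both fell in every alternative (-2.31 and -3.07), and they were the only calls by edgeR among 10 tested galectins, annexins and S100 genes.

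**Figure D3:**
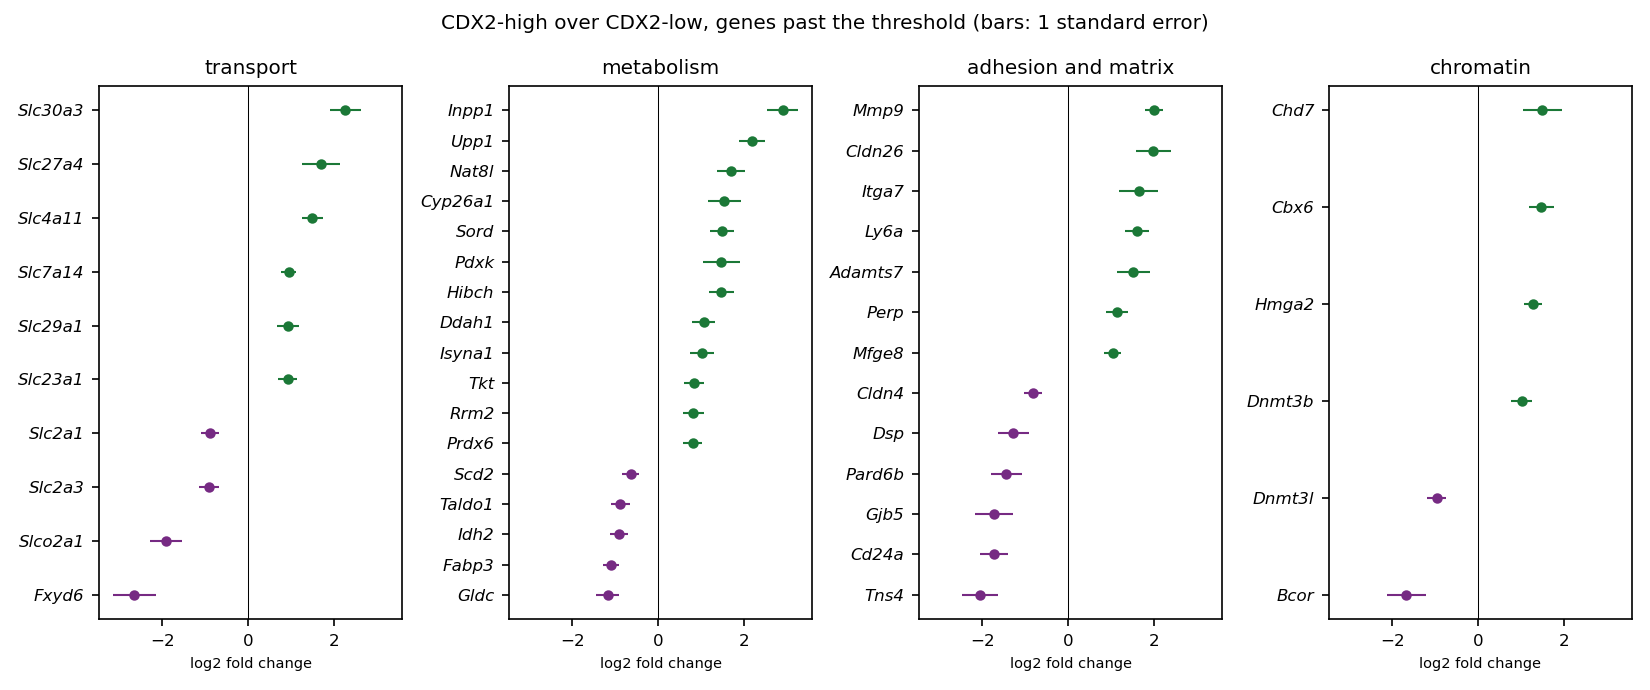
Log2 fold change, CDX2-high over CDX2-low, with bars of 1 standard error, for genes past the threshold in transport, metabolism, adhesion and matrix, and chromatin. Genes higher (green) and lower (purple) occur in every panel, from Inpp1 at 2.90 to Fxyd6 at -2.65.

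Chromatin regulators were called about as often as all genes. Of 88 tested 4 rose and 1 fell (5.68% of those tested, beside 5.89% of all genes), with a median log2 fold change of 0.01, and 13 were higher and 4 lower at an unadjusted p under 0.05. Hmga2, an architectural protein of stem and embryonic cells, was at 1199.7, 1244 and 926 CPM in the CDX2-high libraries and 533, 407 and 456 CPM in the CDX2-low libraries (a log2 fold change of 1.27, SE 0.21, adjusted p = 0.000357). Cbx6, a chromodomain subunit of Polycomb complexes, was at 418, 391 and 306 CPM in the CDX2-high libraries and 103, 199 and 91.3 CPM in the CDX2-low libraries (a log2 fold change of 1.47, SE 0.29, adjusted p = 0.00226). Both were stable. The DNA methyltransferase Dnmt3b rose by 1.02 (SE 0.24, adjusted p = 0.012) and did not pass without CDX2-low library 42 (adjusted p up to 0.0543), while Dnmt3l, the catalytically inactive cofactor of these enzymes, fell by 0.96 (SE 0.22, adjusted p = 0.00858) and did not pass without CDX2-high library 37 or 39 (adjusted p up to 0.0663). Their levels were 456, 540.3 and 487 CPM in the CDX2-high libraries and 267, 303 and 164 CPM in the CDX2-low libraries for Dnmt3b, and 334, 429 and 372 CPM in the CDX2-high libraries and 677, 615 and 940.1 CPM in the CDX2-low libraries for Dnmt3l, without overlap in either. The remodeller Chd7 rose by 1.50 and did not pass with DESeq2, with no filter, with the stricter filter, without CDX2-high library 37, 38 or 39 or without CDX2-low library 40, 41 or 42 (adjusted p up to 0.257). Outside the list and named after their values were seen, Morc4, an ATPase with a histone-reading domain, was stable at 964, 1351 and 833 CPM in the CDX2-high libraries and 523, 407 and 493 CPM in the CDX2-low libraries (a log2 fold change of 1.15, SE 0.22, adjusted p = 0.00179). Bcor, a subunit of a variant Polycomb complex, fell by 1.67 and did not pass with DESeq2, with no filter, without CDX2-high library 37, 38 or 39 or without CDX2-low library 40, 41 or 42 (adjusted p up to 0.237). None of 10 tested histone genes passed by edgeR or DESeq2, and 1 had an unadjusted p under 0.05.

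Genes of mitosis and the G2 phase leaned upward in the CDX2-high libraries. Of 33 tested 5 rose, none fell by edgeR or DESeq2 or at an unadjusted p under 0.05, and 29 had a positive log2 fold change (median 0.52), while the list's summed level was 8260 to 8847 CPM in CDX2-high and 5433 to 5949 CPM in CDX2-low libraries. Ccnb1, the cyclin of mitotic entry, was at 676, 657 and 505 CPM in the CDX2-high libraries and 226, 208 and 237 CPM in the CDX2-low libraries (a log2 fold change of 1.44, SE 0.24, adjusted p = 0.000299). Ube2c, the ubiquitin-conjugating enzyme of the anaphase-promoting complex, was at 342, 377 and 381 CPM in the CDX2-high libraries and 185, 121 and 173 CPM in the CDX2-low libraries (a log2 fold change of 1.21, SE 0.26, adjusted p = 0.00459). These were stable and did not overlap. Cdk1, Ccna2 and Incenp rose by 0.86, 0.93 and 1.11, and each lost its call with DESeq2, after thinning and without CDX2-high library 39, with adjusted p up to 0.152, 0.191 and 0.115. More mitotic genes outside the list rose, named after their values were seen: Mybl2, Gtse1, Spag5, Troap, Cdca2, Fbxo5, Ccnf and Fzr1, by 1.01, 1.03, 1.33, 1.23, 1.36, 1.39, 1.31 and 1.24. None of these 8 was stable, and the highest adjusted p over the alternatives ran from 0.0622 for Spag5 to 0.229 for Troap. In the S phase list 1 of 24 rose, 18 had a positive log2 fold change and the median was 0.21. Every CDX2-high library was also deeper, and the part of depth in these values was read only through thinning.

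Vesicle traffic genes added 5 that rose and 1 that fell among 50 tested. Rin2, an activator of the early endosome GTPase Rab5, was at 159, 139.7 and 106 CPM in the CDX2-high libraries and 20.5, 8.67 and 54.8 CPM in the CDX2-low libraries (a log2 fold change of 2.22, SE 0.49, adjusted p = 0.00617), and was stable. Its relative Rin1 rose by 1.04, and did not pass with DESeq2, without CDX2-high library 38 or 39 or without CDX2-low library 41 (adjusted p up to 0.0862). The Golgi GTPase Rab33b was at 9674, 8649.9 and 8719.7 CPM in the CDX2-high libraries and 6103, 6569 and 5203 CPM in the CDX2-low libraries, a small difference without overlap (log2 fold change 0.60, SE 0.14, adjusted p = 0.0116) that did not pass without CDX2-high library 37 (adjusted p up to 0.0663). Syt13, an atypical synaptotagmin of vesicle fusion, was at 30.4, 23.3 and 22.2 CPM in the CDX2-high libraries and 103, 147 and 192 CPM in the CDX2-low libraries and fell in every alternative (log2 fold change -2.55, SE 0.43, adjusted p = 0.000435). In the lysosome and proton pump list none of 18 tested members rose by edgeR, DESeq2 or at an unadjusted p under 0.05, and 3 fell, with a median of -0.45, and summed levels of 3757 to 3981 CPM in CDX2-high against 5275 to 5608 CPM in CDX2-low libraries. Lgmn, an asparagine-specific lysosomal protease, was at 53.2, 51.2 and 62.0 CPM in the CDX2-high libraries and 215, 113 and 201 CPM in the CDX2-low libraries and was stable (log2 fold change -1.63, SE 0.36, adjusted p = 0.00712). Grn and the cathepsin Ctsl fell, with log2 fold changes of -1.17 and -1.08. Grn did not pass without CDX2-high library 39 (adjusted p up to 0.0597), nor Ctsl without CDX2-high library 37 or 38 or without CDX2-low library 42 (adjusted p up to 0.0908).

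Housekeeping lists held few or no calls. None of 76 tested ribosomal protein genes, 20 aminoacyl-tRNA synthetases and 29 genes of the nucleolus passed by edgeR or DESeq2. At an unadjusted p under 0.05, 7 ribosomal protein genes and 2 synthetases were lower and 2 nucleolar genes higher in CDX2-high libraries. Of 72 nuclear genes of oxidative phosphorylation 1 fell, Atp5h, and of 62 genes of the mitochondrial ribosome and import 1 fell, Chchd10. Ribosomal protein genes had a median of -0.15 with 17 of 76 positive, and oxidative phosphorylation genes -0.15 with 18 of 72 positive. Nucleolar genes had a median of 0.20 with 24 of 29 positive. Against the median of -0.01 over all genes tested these are small shifts. The ribosomal sums were 168500 to 177700 CPM in CDX2-high and 180000, 183600 and 204400 CPM in CDX2-low libraries 40, 41 and 42. Those of oxidative phosphorylation were 22570 to 24340 CPM in CDX2-high and 24620 to 26240 CPM in CDX2-low libraries. The medians were also taken with each library left out, and how many moved is given at the end for all lists and alternatives together.

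**Figure D4:**
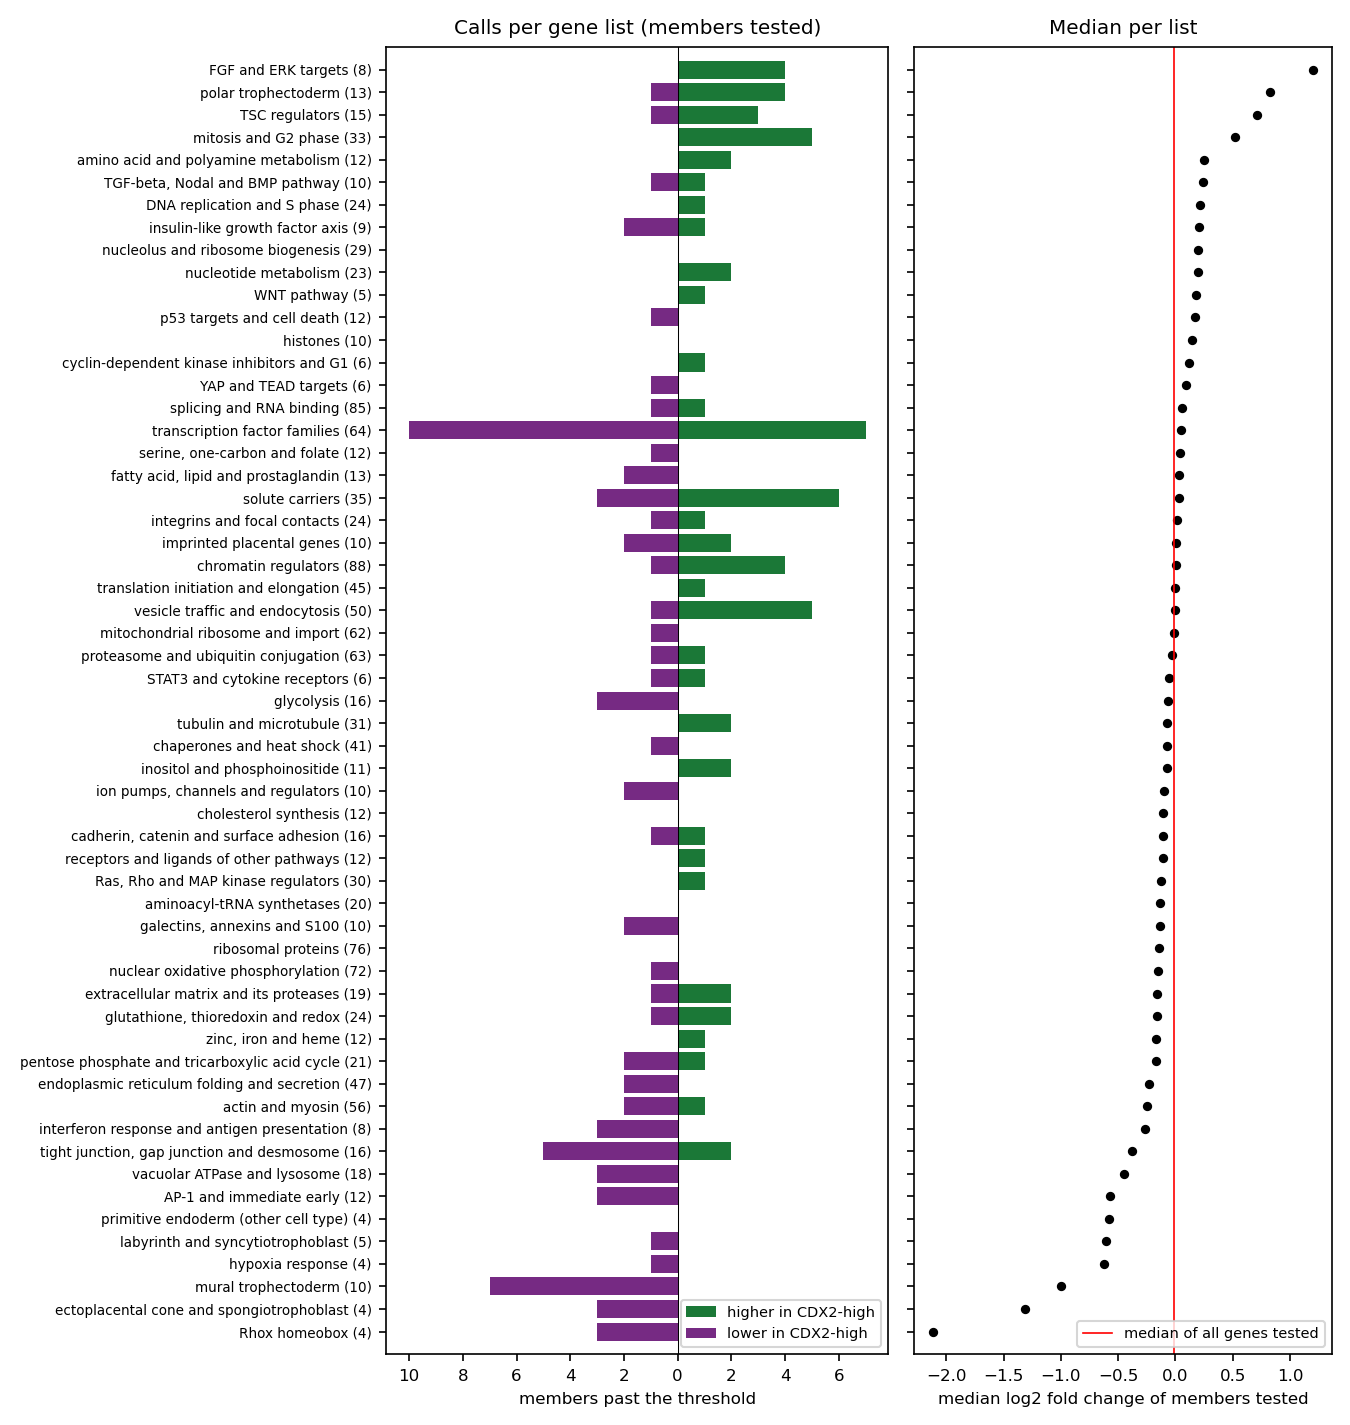
For each of the 57 gene lists with at least 4 members tested (number tested in brackets), the left panel gives the members higher (green, to the right) and lower (purple, to the left) in CDX2-high libraries, and the right panel gives the median log2 fold change with a red line at the median of all genes tested (-0.01). FGF and ERK targets are at the top with 1.20 and Rhox genes at the bottom with -2.12, while most housekeeping lists lie close to the line.

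Promoter windows were read to show the sequence upstream of genes that followed the sort. RefSeq's promoter table for GRCm38.p6 had an entry for 126 of the 177 genes, and the 250 bases before each start site were searched on both strands for 8 motifs. The CDX2-type motif TTTATG occurred in 7 of 61 higher genes (11.5%) and in 1 of 65 lower genes (1.54%), beside 6.29% of the 2322 tested genes with an entry and 12.4% of all 27025 genes with an entry. The looser TTTATN, which contains the former, did not separate them, at 29.5% and 29.2% beside 24.7% of tested genes. The SOX motif CTTTGT was in 23.0% of higher and 7.69% of lower genes beside 13.7% of tested genes, and the AP-1 motif TGANTCA in 8.20% and 9.23% beside 5.51%. The remaining 4 motifs were the TEAD motif GGAATG (11.5% and 9.23%, beside 11.9%), the TFAP2 motif GCCNNNGGC (26.2% and 24.6%, beside 25.1%), the CREB motif TGACGTCA (1.64% and 0%, beside 3.53%) and TTTGAA, part of the TCF and LEF motif (18.0% and 9.23%, beside 12.3%). No test was made of these shares, and a match is a run of letters, not a shown binding site.

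The windows of 4 higher genes with TTTATG are printed with that of Id2, the 1 lower gene with it, because they show where the letters lie. They run 5′ to 3′ on the gene's strand and end at the base before the start site, with TTTATG or its reverse complement CATAAA in capitals. Positions in GRCm38.p6 are chr2:145785866-145786115, plus strand, for Rin2, chr17:65772753-65773002, minus strand, for Rab31, chr2:29802384-29802633, plus strand, for Slc27a4, chr17:70849791-70850040, minus strand, for Tgif1 (1 of its 5 start sites) and chr12:25096093-25096342, minus strand, for Id2.
Rin2: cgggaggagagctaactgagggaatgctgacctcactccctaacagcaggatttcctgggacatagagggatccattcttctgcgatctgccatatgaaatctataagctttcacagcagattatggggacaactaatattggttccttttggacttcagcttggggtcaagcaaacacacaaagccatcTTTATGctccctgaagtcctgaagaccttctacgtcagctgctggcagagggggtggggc
Rab31: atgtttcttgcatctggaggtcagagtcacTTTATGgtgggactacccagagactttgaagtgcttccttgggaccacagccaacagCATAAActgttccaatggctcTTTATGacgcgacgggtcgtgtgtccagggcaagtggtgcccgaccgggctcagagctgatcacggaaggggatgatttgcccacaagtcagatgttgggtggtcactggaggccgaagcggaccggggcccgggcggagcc
Slc27a4: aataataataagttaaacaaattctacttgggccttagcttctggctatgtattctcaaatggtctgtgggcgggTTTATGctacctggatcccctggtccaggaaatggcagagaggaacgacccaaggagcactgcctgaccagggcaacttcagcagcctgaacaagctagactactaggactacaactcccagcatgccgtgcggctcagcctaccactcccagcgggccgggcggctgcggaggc
Tgif1: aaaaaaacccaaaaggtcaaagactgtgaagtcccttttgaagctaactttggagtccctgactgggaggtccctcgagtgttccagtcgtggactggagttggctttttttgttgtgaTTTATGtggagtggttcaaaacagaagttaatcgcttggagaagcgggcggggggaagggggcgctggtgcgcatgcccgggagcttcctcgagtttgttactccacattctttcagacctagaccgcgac
Id2: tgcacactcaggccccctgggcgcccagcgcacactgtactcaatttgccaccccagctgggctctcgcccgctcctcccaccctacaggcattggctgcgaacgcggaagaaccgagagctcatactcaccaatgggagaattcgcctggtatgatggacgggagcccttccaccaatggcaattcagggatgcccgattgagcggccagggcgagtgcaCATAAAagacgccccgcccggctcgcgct
Rab31, a GTPase of the trans-Golgi and endosomes, has 3 such matches in its window, and the others have 1 each. In Id2 the match begins 29 bases before the start site, and in Rin2 60 bases before it. Of these genes Rin2 and Id2 were stable, and the other 3 lost their calls in some alternatives (Rab31 rose by 1.79 but did not pass with DESeq2, without CDX2-high library 37, 38 or 39 or without CDX2-low library 40 or 41 (adjusted p up to 0.107)).

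The genes that followed the sort were then read in the single-cell plates, which share no sample with the bulk libraries. Counts were summed over 318 wells of differentiated TSCs (3254559 counts, median 8473 per well) and 318 wells of TSCs (5388767, median 15091). The wells of each table are numbered 1 to 384 alike, which says nothing of shared cells. Each group has 1 library, so no test was possible, and genes are called higher or lower by size alone, at a CPM ratio of 2-fold or more. Of the 93 genes higher in CDX2-high cells 71 were measured, and 35 of them (49.3%) were lower in differentiated TSCs while 5 (7.04%) were higher, beside 20.4% lower and 9.84% higher among all 2570 tested genes measured. Of the 84 genes lower in CDX2-high cells 74 were measured, with 16 (21.6%) higher and 15 (20.3%) lower in differentiated TSCs. The median log2 ratios were -0.94, -0.04 and, for all 2570 genes, -0.17. For some genes the level itself differed widely between the TSC plate and the bulk libraries. Slc7a14 was at 1.49 CPM in the plate and 2720 to 7198 CPM in bulk, and Rab33b at 46.95 CPM and 5203 to 9674 CPM. Krt8, at 349.8 CPM, lay within its bulk range of 228 to 1026 CPM. What lies behind these gaps was not tested.

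The genes named here were chosen after their values were seen. Among the genes higher in CDX2-high cells, Nat8l was at 34.1 CPM in differentiated TSCs and 788 CPM in TSCs, a log2 ratio of -4.53 (95% interval -4.81 to -4.26, for counting error only, as for those below). Zic2 was at 6.14 and 30.2 CPM (-2.30, -3.05 to -1.63), Inpp1 at 16.6 and 119 CPM (-2.84, -3.27 to -2.44) and Cbx6 at 28.0 and 188 CPM (-2.75, -3.08 to -2.44). These 4 were lower in differentiated than in undifferentiated cells as well as lower in CDX2-low cells. Vim went the other way, with 70 counts in differentiated TSCs and 0 in TSCs. By the lower 95% limit for counting error it was at least 30.6-fold higher (38.6-fold against a floor of 3 counts over the library). A gene with no entry in a plate was read as 0, so 0 counts and no entry cannot be told apart. The bulk TSC libraries held Vim at 130 to 341 CPM, so its ratio is uncertain. Among the genes lower in CDX2-high cells, Krt8 was at 2224 and 349.8 CPM (2.67, 2.60 to 2.74), Lgals3 at 28.3 and 2.23 CPM (3.67, 2.79 to 4.67), Slco2a1 at 814 and 182 CPM (2.16, 2.06 to 2.27) and Jun at 765 and 215 CPM (1.83, 1.73 to 1.93). These were higher in differentiated TSCs. Fabp3 (993 and 3153 CPM, -1.67, -1.72 to -1.61), Id2 (592 and 2653 CPM, -2.16, -2.23 to -2.09) and Cited1 (36.6 and 226 CPM, -2.63, -2.91 to -2.35) were lower there, although in the sort they were lower in CDX2-high cells.

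With the pTSC library (299 wells) in place of TSCs, 35 of 71 genes higher in CDX2-high cells (49.3%) were again lower in differentiated TSCs, beside 22.7% of all 2491 measured. Of 71 genes lower in CDX2-high cells 30 (42.3%) were higher in differentiated TSCs, beside 12.6%, and 7 (9.86%) were lower. The count for the genes lower in CDX2-high cells thus depended on the undifferentiated library, 16 of 74 with TSCs and 30 of 71 with pTSCs. These libraries differ in line and medium as well as in their state, which cannot be told apart with 1 library each.

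**Figure D5:**
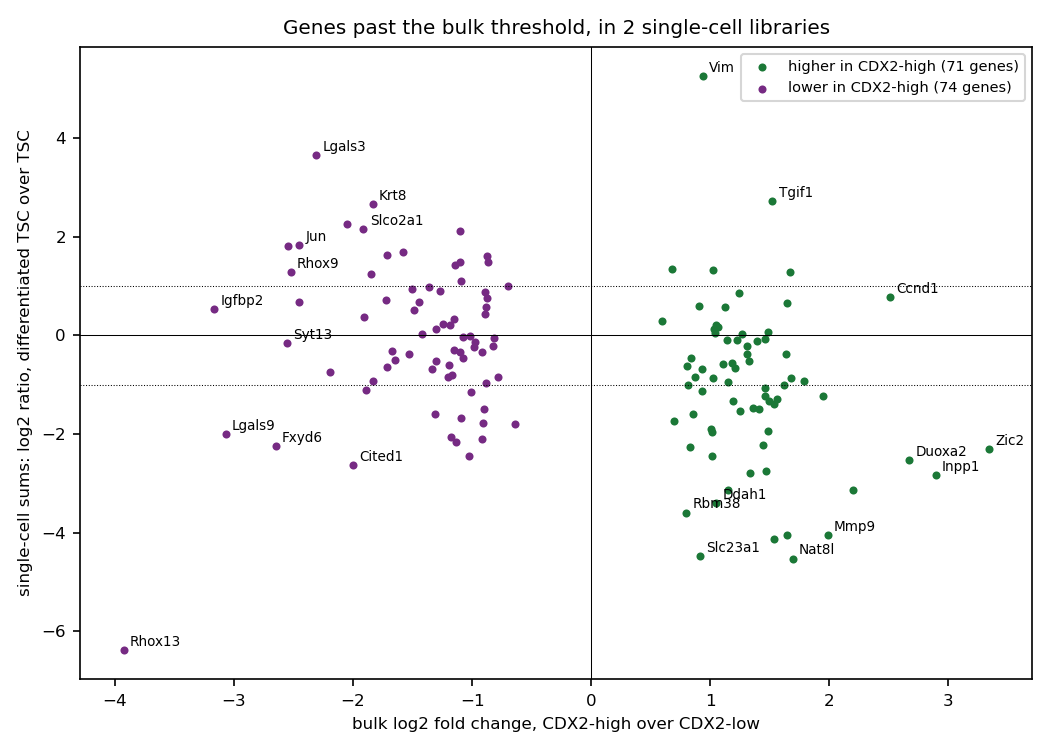
Each point is a gene past the bulk threshold, with its bulk log2 fold change, CDX2-high over CDX2-low, on the horizontal axis and the log2 ratio of differentiated TSC over TSC sums on the vertical axis (dotted lines at 2-fold). Of the 71 genes at the right 35 lie below the lower dotted line, while the 74 genes at the left spread to both sides. Vim (0 counts or no entry in TSCs) and Galnt12 (0 counts or no entry in differentiated TSCs) are drawn at the limit set by 3 counts.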

How the data were processed

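RNA was measured with CEL-Seq2, which counts transcripts by their 3′ ends, in 6 bulk libraries of sorted TSCs and in single-cell plates. As deposited, the bulk table gives unscaled whole-number counts for each gene in each library. The single-cell tables hold transcript counts per gene and well as deposited, treated here as estimated counts and summed without rounding, and all are whole numbers. The submitters' processing notes name STAR 2.5.3a. For the genome build, annotation, strand setting and counting program, the sources used here give nothing.

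The groups were taken from the sample titles. The comparison of the sorted groups used edgeR 4.0.16 (R 4.3.3) on the counts left by filterByExpr, with TMM factors, and its quasi-likelihood F test without covariates. A gene passed where its p, adjusted by Benjamini and Hochberg's method over all 3006 genes tested, was under 0.05. The standard error is the absolute log2 fold change over the root of F. CPM values of genes use each library's counts in the 3006 genes tested, with TMM factors. Summed levels of lists use the plain totals over all genes, so the scales differ. The libraries held 116659 to 272030 counts, and intervals given cover counting error only. In counts simulated for the sorted groups (3060 genes tested), 65 of 92 genes changed 2-fold and 101 of 101 changed 4-fold were recovered, and 4 of 170 calls were false. The simulation gave every gene in both groups the same spread beyond counting noise (dispersion 0.0254). It lacked the wider spread of the CDX2-low libraries, so these rates need not hold in the data.

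Alternatives were DESeq2 1.42.0, its size factors in edgeR, library totals only, no filter on low counts, a filter of 10 counts in at least 3 libraries, thinning to the smallest total and leaving out each library. Single-cell wells needed 2000 or more UMIs from genes that are not mitochondrial, genes needed 10 counts over both libraries, and intervals are exact conditional binomial ones at 95%. No doublet caller was run on these sorted wells. The blastoid plate and the list of well barcodes were not used here.

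Named genes are the check genes, the 20 largest changes and the 10 best counted genes past the threshold in each direction, list members past it, and the best counted or core members that did not pass. Others are marked in the text as named after their values were seen, apart from the genes of stable calls. The genes, lists and comparisons were chosen with earlier results of these data known.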

Additional observations from a re-analysis of the deposited data

How the results depend on the processing

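The fit gave 177 calls, 93 higher and 84 lower. DESeq2 gave 88 (42 higher, 46 lower), and thinning every library to the smallest total gave 112 (59 and 53). Leaving out 1 library at a time gave between 81 and 189 calls, 50 to 98 higher and 31 to 91 lower. Other settings stayed within 1.5 times the counts of the fit, and with no filter on low counts 61.0% of the calls were higher in CDX2-high libraries, against 52.5%. Over the genes named or called, 0 values of called genes reversed, 2081 values kept their side of the threshold, 597 lost their call and 15 gained one. Direction was checked for called genes only. Of 720 list medians, 98 moved by more than the spread between libraries. No paired analysis was possible because the replicate numbers 37 to 39 and 40 to 42 are not shared by the groups. The bulk table holds 0 mitochondrially encoded genes, so the fit without them was not run. In the single-cell sums, all wells or a minimum of 50 counts per gene left 35 and 30 of the genes higher in CDX2-high cells at least 2-fold lower in differentiated TSCs. At the smallest total of 116659 counts, differences of 2-fold in genes of few counts could be missed.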
